A study of Homo sapiens with 9 samples.

Results

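The genes described here are the collagens, the laminins and 13 other structural proteins of the extracellular matrix, measured by RNA sequencing in a human trabecular meshwork cell line. Members were protein-coding genes whose symbol is COL, a number, A and a number, or LAMA, LAMB or LAMC with a number, together with FN1, ELN, FBN1, FBN2, FBLN1, FBLN5, VCAN, DCN, BGN, LUM, NID1, NID2 and HSPG2. This gave 68 genes, of which 43 are collagen chains and 12 are laminin chains, out of 37247 genes in the deposited tables. The rule uses no measured value, though it was chosen with earlier results of these data known.

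The line, T0371 from abm, consists of immortalized primary cells of the trabecular meshwork, the sieve of beams through which aqueous humour leaves the front of the eye. All groups were grown on plates coated with type I collagen, kept without serum for 24 h and harvested 6 h after treatment. One group received dexamethasone (DEX, an agonist of the glucocorticoid receptor) at 0.1 µM, another norepinephrine (NE, the adrenergic transmitter of sympathetic nerves) at 1 µM, and the vehicle group received DMSO. The study asked how each of these exposures alters expression in cells of the outflow tissue, and the labels list 3 replicates per group without saying whether they were separate cultures, so p-values measure the spread between these samples, which may be partly technical.

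Trabecular meshwork beams have a core of fibrillar collagen and elastic fibres wrapped in a basement membrane made of type IV collagen, laminins, nidogens and perlecan. Fibronectin links these networks to cells through integrins, and it accumulates in the outflow tissue in glaucoma and after prolonged glucocorticoid exposure. Because a laminin is a trimer of an alpha, a beta and a gamma chain, and collagens are trimers of alpha chains, the level of 1 chain alone does not give the amount of assembled protein.

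The values are expected counts in 2 tables, 1 with 3 DEX and 3 vehicle libraries (19326830 to 27337259 counts each) and 1 with 3 NE and 3 vehicle libraries (31104094 to 36216506 counts each). CPM, counts scaled to a common library total by TMM sizes within each table, give the level of a gene in a library, and TPM, transcript counts also divided by transcript length, is the only scale on which genes are compared with each other. Of 13 trabecular meshwork markers, VIM, FOXC1, MATN2, TIMP3 and RARRES1 were above 6 CPM in every library, whereas MYOC, AQP1, ANGPTL7 and NELL2 did not exceed 0.405 CPM in any. The summed endothelial markers lay between 12.3 and 23.9 CPM over the 12 libraries, and the summed smooth muscle and pericyte markers between 511 and 592 CPM. In cultures measured in bulk, fewer cells of a type and less RNA per cell cannot be told apart. In the NE table, vehicle replicate 1 was unlike the vehicle replicates 2 and 3: the chi-square per degree of freedom between replicates was 17.3 and 21.1 for the pairs with replicate 1 and 2.96 for the pair without it.

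The vehicle cells expressed a fibronectin-rich matrix with type I, VI and IV collagens as the leading collagens. FN1, which encodes fibronectin and ranked first of the members in both tables, had 1748 ± 191 TPM in the vehicle libraries of the DEX table and 2330.2 ± 405 TPM in those of the NE table (mean ± SD, n = 3 here and below). COL1A1, the alpha 1 chain of type I collagen, had 652 ± 31.9 and 547 ± 47.2 TPM in the same order, and its partner chain COL1A2 had 464 ± 23.5 and 338 ± 24.8 TPM. The type VI chains COL6A1, at 336 ± 16.5 and 372 ± 23.5 TPM, and COL6A2, at 309 ± 12.2 and 339 ± 8.19 TPM, form beaded filaments around cells. These 5 genes had the highest vehicle levels per length averaged over both tables. COL4A2 and COL4A1, the chains of the common type IV collagen, followed at 340.4 ± 25.3 and 228 ± 19.5 TPM in the DEX table, and at 269 ± 25.0 and 114 ± 11.6 TPM in the NE table. The level of COL1A2 was below that of COL6A1 in the NE table and above it in the DEX table, so neighbouring ranks were not fixed between the sets.

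Among laminin chains the levels per length were highest for LAMC1, LAMB1, LAMA4 and LAMB2, the chains of laminins made by mesenchymal cells. LAMC1 had 150.3 ± 15.7 TPM in the vehicle libraries of the DEX table and LAMA4 had 70.8 ± 5.08 TPM. ELN, which encodes elastin, was measured at 0.233 ± 0.039 TPM in the DEX-table vehicle libraries, against 49.5 ± 6.56 TPM for FBN1, the fibrillin of the microfibril scaffold. Several tissue-restricted collagens were close to 0: COL22A1 had no count in any library, and the 10 members tested in neither table had at most 12 counts in a library. All members together took 1.66 ± 0.0992% of the counts in the DEX-table vehicle libraries, and FN1 alone took 0.581% to 0.690% of them.

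**Figure D1:**
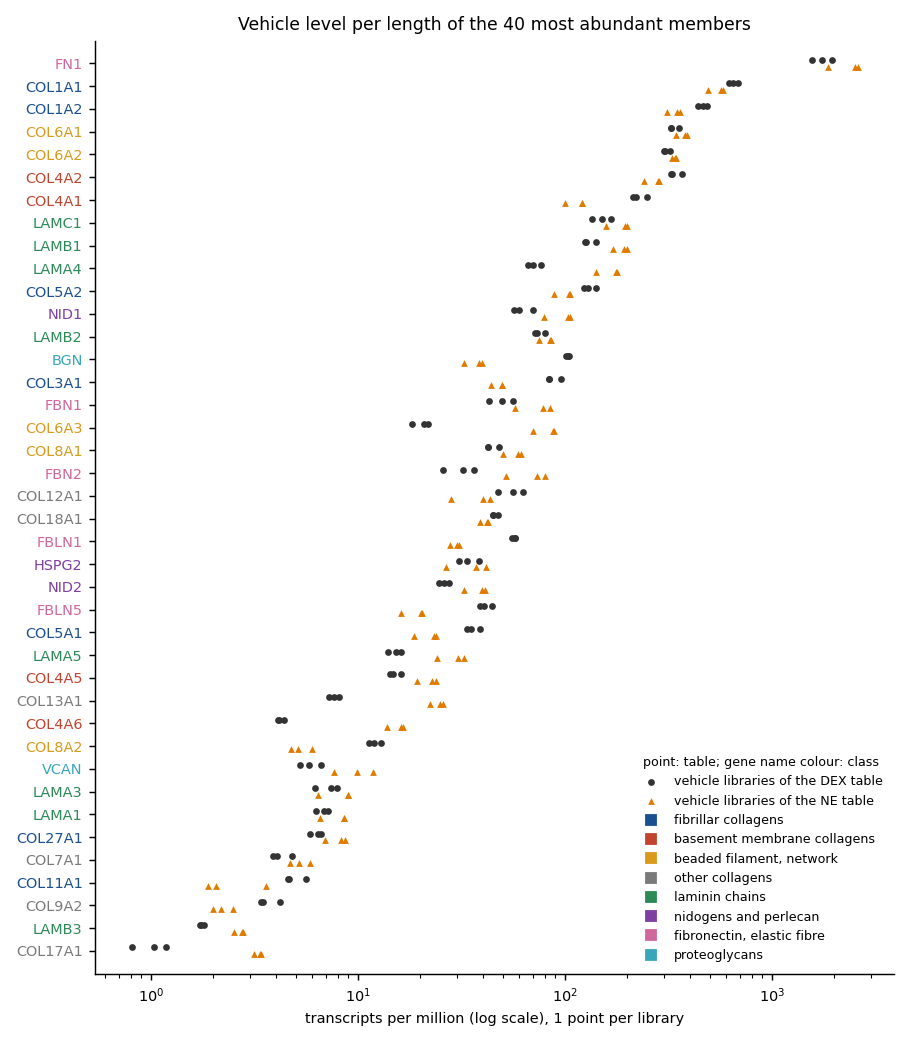
Vehicle level in TPM (log scale, 1 point per library) of the 40 members with the highest mean, with circles for the 3 vehicle libraries of the DEX table and triangles for the 3 of the NE table; gene names are coloured by class. FN1 lies above all other members in both tables, and COL6A3, COL4A6 and LAMA4 lie further right in the NE table.

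The 2 sets of vehicle libraries differed in their matrix genes. Of 55 members tested in both tables, 6 were more than 2-fold higher in the NE-table vehicle libraries by mean CPM, scaled separately per table, where 2.68% of all genes were, and 8 were more than 2-fold lower, where 3.61% of all genes were. COL6A3, the long chain of type VI collagen, was at 371 ± 28.9 CPM in the NE table and 99.7 ± 6.29 CPM in the DEX table, a ratio of 3.72. COL4A6, a minor type IV chain, had a ratio of 3.38, COL17A1, a hemidesmosome collagen, 3.02, COL13A1, a transmembrane collagen, 2.93, and LAMA4 2.15. On the lower side, BGN, which encodes the small proteoglycan biglycan, had a ratio of 0.33 and COL4A1 one of 0.459. FBLN5, an elastic fibre assembly protein, had a ratio of 0.421. Table and culture cannot be told apart in these ratios, and each treatment below is compared with the vehicle libraries of its own table.

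DEX raised 17 of the 55 tested members and lowered none. They included FN1, the fibrillins FBN1 and FBN2, laminin chains, perlecan, nidogen and type IV, V, VI, VIII, XVIII and XXI collagen chains, and all increases were less than 2-fold. The share called higher was 30.9% of tested members, against 6.65% of all 15133 genes tested (edgeR's quasi-likelihood test, Benjamini-Hochberg adjusted p below 0.05, used for every adjusted p below). No member was called lower, against 3.46% of all genes; 2 had lower values at an unadjusted p below 0.05, and DESeq2 also called none lower. The median log2 fold change of the 55 was 0.14, against -0.01 over all genes, and 46 of the 55 were above 0. All 3 DEX libraries were above all 3 vehicle libraries for 26 members, where 15.2% of all genes were, and below them for 2, where 13.1% of all genes were. The count of 17 was 11 without DEX replicate 1, 6 without DEX replicate 2, 10 without vehicle replicate 1 and 11 without vehicle replicate 2. FN1, LAMA4, COL6A3 and COL4A6 were called under all 14 other settings tried, and the other 13 lost the call under at least 1. Among markers of other cell types, the summed epithelial markers were at 146 to 151 CPM with DEX and 154 to 163 CPM with vehicle, with 1 of 5 tested markers called. KRT19 made up nearly all of that sum, at 139 to 144 CPM with DEX and 148 to 158 CPM with vehicle. The sum does not give the direction of the other epithelial markers. The endothelial sums overlapped, at 12.3 to 13.9 CPM with DEX and 12.3 to 13.5 CPM with vehicle, with 1 of 7 tested called, and KDR, a receptor for VEGF, was at 2.54 to 3.49 CPM with DEX and 1.60 to 1.70 CPM with vehicle. The smooth muscle and pericyte sums overlapped as well, at 571 to 592 CPM with DEX and 556 to 580.5 CPM with vehicle, with 2 of 7 called. Genes of that list went both ways. CNN1, a smooth muscle calponin, was at 43.3 to 45.2 CPM with DEX and 52.9 to 58.1 CPM with vehicle. CSPG4 was at 160 to 166 CPM with DEX and 141 to 150 CPM with vehicle. The part of these markers in the member values was not tested.

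Over all genes of the DEX table, log2 fold changes were higher for long transcripts than for short ones, and many members are long. The median log2 fold change of all tested genes was -0.05 for transcripts under 2 kb and 0.07 for those of 8 kb or more, and 2.67% and 12.8% of them were called higher. The median transcript length was 7156 bases for the 17 members called higher, 5707 bases for the 38 tested members not called, and 3021.5 bases for all genes. The 14 members of 8 kb or more had a median log2 fold change of 0.23, and the 31 members from 4 to 8 kb had 0.14, against 0.03 for all genes of that length. In vehicle replicate 1 of the DEX table, genes of 8 kb or more had a median log2 difference of -0.11 from the other vehicle libraries, and 30 of 55 members were lowest in that library. With counts corrected for GC content and length, 15 members were called higher and LAMA5 was called lower, the median of the members was 0.06, and the share of calls over all genes that were higher went from 65.8% to 54.9%. COL5A2 and COL8A1 were the members that lost the call under that correction.

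**Figure D2:**
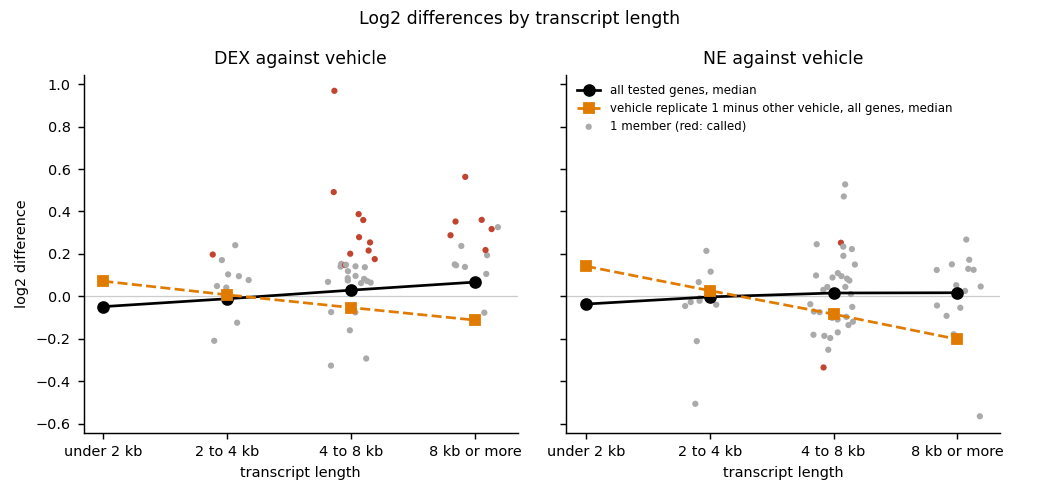
Log2 differences (y axis) by class of transcript length (x axis) in the DEX table and the NE table, with black lines for the median effect over all tested genes, orange lines for the median of vehicle replicate 1 minus the other vehicle libraries, and 1 point for each member shown (red if called). The black line of the DEX table rises from -0.05 to 0.07 while the orange line falls, to -0.11 in the DEX table and -0.20 in the NE table.

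Fibronectin, both fibrillins and FBLN5 were called higher with DEX, and of these only FN1 was called under all 14 other settings. FN1 was at 8729, 7985 and 7578 CPM in DEX replicates 1 to 3 and at 5819, 6324 and 6789.8 CPM in the vehicle libraries. Every DEX library was above every vehicle library, with a 1.28-fold increase (log2 fold change 0.36, SE 0.064, adjusted p = 0.00262). The members' share of all counts was 1.91 ± 0.0721% with DEX and 1.66 ± 0.0992% with vehicle, and FN1 alone took 0.750% to 0.870% of the counts with DEX. FBN1, the main fibrillin of adult microfibrils, was at 356, 345 and 323 CPM with DEX and 238, 268 and 291 CPM with vehicle, groups that did not overlap (log2 fold change 0.36, SE 0.069, adjusted p = 0.00761). FBN2, a fibrillin made mostly during development, was at 228, 224 and 229.8 CPM with DEX and 130.2, 158 and 173 CPM with vehicle. The DEX values of FBN2 lay close together and the lowest vehicle value was that of replicate 1 (log2 fold change 0.56, SE 0.097, adjusted p = 0.013). FBN2 lost its call when any 1 of the 3 DEX replicates was left out, with an adjusted p up to 0.0717. FBN1 lost its call in 1 fit of all 12 libraries (adjusted p = 0.0521). FBLN5, which carries elastin onto microfibrils, was at 44.2, 47.4 and 46.2 CPM with DEX and 38.9, 39.7 and 41.6 CPM with vehicle, a small increase with groups apart (log2 fold change 0.20, SE 0.052, adjusted p = 0.0246). FBLN1 and ELN, the other 2 genes of this class, had log2 fold changes of 0.08 and 0.24 and were not called.

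The promoter window of FN1 is printed because FN1 was the most abundant member and the only 1 of 50 members with a window whose window holds the full cAMP response element TGACGTCA. The window, from RefSeq on GRCh38.p14, runs from 250 bases before to 50 after the start of the gene on the minus strand at chr2:215436019-215436318, and capitals mark the element, which begins 183 bases before the start, and the CCAAT box next to it.
FN1: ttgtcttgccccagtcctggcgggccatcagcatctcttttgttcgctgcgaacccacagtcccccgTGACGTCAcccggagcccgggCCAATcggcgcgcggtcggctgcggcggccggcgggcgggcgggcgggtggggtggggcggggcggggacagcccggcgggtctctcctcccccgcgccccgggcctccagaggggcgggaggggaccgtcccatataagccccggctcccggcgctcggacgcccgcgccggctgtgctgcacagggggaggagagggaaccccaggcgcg
Searched on both strands, TGACGTCA is present in 1.85% of all 35116 windows and CCAAT in 34.6%. The full glucocorticoid response element, AGAACA and TGTTCT with NNN between them, was found in 0 of the 50 members with a window and in 1 of all windows. Its arm AGAACA alone was found in any window of 2 of 14 members called higher with DEX and of 1 of 28 tested members not called. Counted by window it was in 14.8% of all windows, and a member can have more than 1 window. A letter match describes the window and does not show binding.

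Of the laminin chains and their linkers, LAMA4, LAMC1, LAMA3, HSPG2 and NID1 were called higher with DEX. Whether the chains differed from each other in their response was not tested. LAMA4, the alpha 4 chain, was at 263, 258 and 238 CPM with DEX and 201, 208 and 217 CPM with vehicle. All DEX values were above all vehicle values, with the smallest adjusted p of the members (log2 fold change 0.28, SE 0.048, adjusted p = 0.0013). LAMC1, the gamma chain shared by most laminins, was at 664, 659.6 and 617 CPM with DEX and 500.3, 548 and 579 CPM with vehicle, again without overlap (log2 fold change 0.25, SE 0.054, adjusted p = 0.00709). LAMA3, an alpha chain of epithelial laminins, was at 44.7, 46.6 and 39.3 CPM with DEX and 31.3, 36.3 and 37.2 CPM with vehicle, and DEX replicate 3 came closest to the vehicle values (log2 fold change 0.32, SE 0.078, adjusted p = 0.0235). The beta chains LAMB1 and LAMB2 were not called, at log2 fold changes of 0.07 and 0.09, and LAMA5 had a negative value of -0.08. HSPG2, which encodes perlecan, was at 305, 288 and 265 CPM with DEX and 207, 222 and 243 CPM with vehicle, with DEX above vehicle throughout (log2 fold change 0.35, SE 0.065, adjusted p = 0.00499). NID1, the nidogen that bridges laminin and type IV collagen, was at 198, 196 and 187 CPM with DEX and 156, 163 and 181 CPM with vehicle, also apart (log2 fold change 0.22, SE 0.053, adjusted p = 0.0169). NID2, its paralogue, had a log2 fold change of 0.15 with an adjusted p of 0.0778.

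COL4A6 was the only type IV chain called with DEX. It was at 15.6, 17.4 and 16.8 CPM with DEX and 12.9, 12.5 and 12.7 CPM with vehicle. The vehicle values were nearly equal and all DEX values were higher, a 1.31-fold increase (log2 fold change 0.39, SE 0.072, adjusted p = 0.00239). The 6 type IV genes lie as 3 head-to-head pairs, and the values by pair were 0.08 and 0.10 for COL4A1 and COL4A2, 0.19 and 0.33 for COL4A3 and COL4A4, and 0.14 and 0.39 for COL4A5 and COL4A6 on the log2 scale. COL4A5 was at 50.5, 47.9 and 48.4 CPM with DEX and 43.1, 44.0 and 46.0 CPM with vehicle, where the groups did not overlap but the change was not called (log2 fold change 0.14, SE 0.05, adjusted p = 0.0996). Whether the 2 chains of this pair differed in their response was not tested.

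Start windows of COL4A5 and COL4A6 are printed because these neighbours were the type IV chains called with NE and with DEX and the printed windows share sequence. Both come from RefSeq on GRCh38.p14, COL4A5 on the plus strand at chrX:108439588-108439887 and COL4A6 on the minus strand at chrX:108439409-108439708, with the starts of these windows 380 bases apart. COL4A6 has another window, at chrX:108438373-108438672, that shares no base with the COL4A5 window. Gene counts do not show which start was used. Capitals mark the 121 bases at chrX:108439588-108439708 that both windows hold, read in opposite directions.
COL4A5: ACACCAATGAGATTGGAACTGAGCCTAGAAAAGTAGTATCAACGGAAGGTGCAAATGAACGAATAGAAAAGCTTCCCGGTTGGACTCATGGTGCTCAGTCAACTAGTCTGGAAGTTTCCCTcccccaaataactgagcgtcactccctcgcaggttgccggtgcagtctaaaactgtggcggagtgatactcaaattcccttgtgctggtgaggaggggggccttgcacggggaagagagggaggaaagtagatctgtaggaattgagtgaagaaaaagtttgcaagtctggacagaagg
COL4A6: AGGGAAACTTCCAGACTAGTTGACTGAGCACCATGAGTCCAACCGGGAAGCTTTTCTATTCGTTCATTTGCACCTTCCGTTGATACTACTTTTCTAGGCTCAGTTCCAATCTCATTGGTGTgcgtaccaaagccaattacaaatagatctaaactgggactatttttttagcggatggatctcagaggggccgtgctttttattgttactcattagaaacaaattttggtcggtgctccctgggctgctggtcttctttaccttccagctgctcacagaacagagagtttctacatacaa
The shared bases have a GC content of 44.6%, and the median over all 35116 windows is 58.7%. Windows of COL4A1 (chr13:110307108-110307407) and COL4A2 (chr13:110307034-110307333) share bases too, so a shared window is not particular to COL4A5 and COL4A6.

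Of the fibrillar collagens, the type V chains COL5A1 and COL5A2 were called higher with DEX, and the major type I and III chains were not. COL5A1, a type V chain that controls fibril diameter, was at 159, 168 and 156 CPM with DEX and 134, 137 and 145 CPM with vehicle, without overlap (log2 fold change 0.22, SE 0.046, adjusted p = 0.00597). COL5A2, its partner, was at 475, 481 and 463 CPM with DEX and 414, 424 and 444 CPM with vehicle, apart by a smaller margin (log2 fold change 0.15, SE 0.043, adjusted p = 0.0426). COL1A2 lay just outside the threshold at 1225, 1275 and 1299.5 CPM with DEX and 1124, 1153 and 1167 CPM with vehicle, although its groups did not overlap (log2 fold change 0.14, SE 0.043, adjusted p = 0.0509). COL5A2 lost its call under 9 of 14 other settings, and COL1A2 was called higher under 5 of 14. Whether the type V and type I chains differed in their response was not tested. COL1A1 was at 2039.9, 2125 and 2131 CPM with DEX and 1965, 2021 and 2033 CPM with vehicle, where the lowest DEX value was barely above the highest vehicle value (log2 fold change 0.06, SE 0.043, adjusted p = 0.4). COL3A1, which forms fibrils with type I collagen, had a log2 fold change of 0.07, and COL5A3, a minor type V chain at 4.02 ± 0.265 CPM with vehicle, had one of -0.33 (adjusted p = 0.15).

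Among the remaining collagens, 4 were called higher with DEX. COL6A3 was at 121, 128 and 115 CPM with DEX and 92.4, 103 and 104 CPM with vehicle, and every DEX value was higher (log2 fold change 0.29, SE 0.054, adjusted p = 0.00279). Its partner chains COL6A1 and COL6A2 overlapped between the groups, COL6A1 at 681, 696 and 664 CPM with DEX and 650.4, 639 and 665 CPM with vehicle. COL6A2 was at 499, 531 and 491 CPM with DEX and 489, 488 and 494 CPM with vehicle. COL6A1 and COL6A2 had log2 fold changes of 0.06 and 0.05 with adjusted p-values of 0.407 and 0.554. COL8A1, a network-forming collagen of corneal and vascular basement membranes, was at 129, 134 and 128 CPM with DEX and 114, 111 and 121 CPM with vehicle, with groups apart (log2 fold change 0.18, SE 0.044, adjusted p = 0.0196). COL18A1, a basement membrane collagen whose end fragment is endostatin, was at 144, 150.4 and 134 CPM with DEX and 125, 123 and 125 CPM with vehicle, also apart (log2 fold change 0.20, SE 0.047, adjusted p = 0.0118). COL21A1, a fibril-associated collagen, had the largest fold change of the called members at a low level, 1.99, 1.58 and 1.47 CPM with DEX and 0.686, 0.982 and 0.905 CPM with vehicle (log2 fold change 0.97, SE 0.24, adjusted p = 0.0178). In GENCODE, SLC19A1 on the opposite strand covers 16.4% of the exon bases of COL18A1 and LDLRAD2 covers 11.7% of those of HSPG2, and the strand setting of the counting is not given in the sources used here, so reads there cannot be assigned with certainty.

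Of the proteoglycans, DCN, which encodes decorin, a binder of collagen fibrils and of TGF-beta, was called higher with DEX. It was at 5.69, 5.93 and 5.09 CPM with DEX and 3.56, 4.44 and 3.92 CPM with vehicle, a low level with groups apart (log2 fold change 0.49, SE 0.12, adjusted p = 0.02). The related BGN, at 113 ± 2.77 CPM with vehicle, had a log2 fold change of 0.04, and VCAN, which encodes the large proteoglycan versican, had 0.14. LUM, which encodes lumican, had -0.12 with an SE of 0.221. None of these 3 was called.

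By class, DEX raised 4 of 6 fibronectin and elastic fibre genes (median log2 fold change 0.30), 2 of 3 nidogen and perlecan genes (0.22) and 3 of 10 tested laminin chains (0.10). It raised 2 of 5 beaded filament and network collagens (0.15), 2 of 9 fibrillar collagens (0.14), 1 of 6 type IV chains (0.17), 2 of 12 other collagens (0.11) and 1 of 4 proteoglycans (0.09). Of all genes 6.65% were called higher, and such small counts are no result about a class. Among members with negative values, none of them called, COL14A1, a fibril-associated collagen, and COL13A1 had log2 fold changes of -0.29 (adjusted p = 0.274) and -0.21 (adjusted p = 0.177). The long COL12A1, a fibril-associated collagen of load-bearing tissue measured at 329 ± 11.3 CPM after DEX against 297 ± 32.1 in its vehicle group, had one of 0.15 and its groups overlapped. COL7A1, which forms anchoring fibrils, and LAMA2, the alpha chain of muscle laminin, had 0.15 and 0.24 with standard errors of 0.085 and 0.119, and neither was called.

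**Figure D3:**
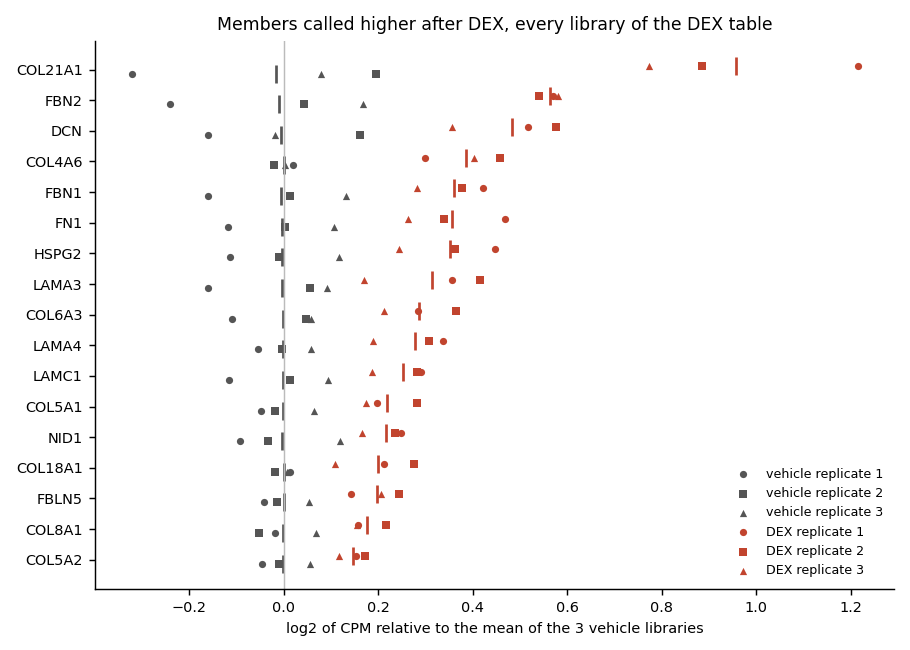
Log2 of CPM relative to the mean of the 3 vehicle libraries (x axis) for the 17 members called higher with DEX, with 1 point per library, marker shape for the replicate and a vertical tick for the group mean. DEX points (red) lie right of all vehicle points (grey) in every row, and vehicle replicate 1 is the lowest vehicle point for most members.

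Without pairing by replicate number, NE changed few matrix genes, among which COL4A5 rose and COL8A1 fell. In all, 1 of 58 tested members was called higher, against 1.48% of all 15630 genes, and 2 were called lower, against 1.34%, so the shares of 1.72% and 3.45% rest on 1 and 2 genes and are no result about the members as a group. The median log2 fold change of the members was 0.02, against -0.00314 over all genes, and 30 of 58 were above 0; the median was -0.04 without vehicle replicate 1 and -0.01 without NE replicate 3. All 3 NE libraries were above all 3 vehicle libraries for 9 members, where 11.1% of all genes were, and below them for 8, where 9.99% of all genes were. The count of 3 was 1 without NE replicate 1 and 5 without vehicle replicate 1, and it was 0 without NE replicate 2, NE replicate 3, vehicle replicate 2 or vehicle replicate 3. With the replicate number as a block it was 10 (6 higher, 4 lower), where the share of all genes called went from 2.82% to 10.8%. In vehicle replicate 1, 42 of the 58 members were lowest of the 3 vehicle libraries, genes of 8 kb or more had a median log2 difference of -0.20 from the other vehicle libraries, and the part of this in the member values was not tested. The summed epithelial markers were at 102 to 111 CPM with NE and 131 to 164 CPM with vehicle. Nearly all of that sum was KRT19, at 97.0 to 105 CPM with NE and 126 to 159 CPM with vehicle. The part of these markers was not tested either.

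COL8A1 fell with NE. It was at 108, 108 and 109 CPM with NE and 128, 138 and 143 CPM with vehicle. The NE values were nearly equal and all lay below the vehicle values (log2 fold change -0.33, SE 0.049, adjusted p = 0.011). The adjusted p ranged up to 0.0920 over the alternatives and passed 0.05 when NE replicate 2, NE replicate 3, vehicle replicate 2 or vehicle replicate 3 was left out. COL8A2, the chain that partners it in Descemet's membrane of the cornea, had all NE values below all vehicle values and a log2 fold change of -0.19 that was not called (adjusted p = 0.372).

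COL4A5, a minor type IV chain of the basement membranes of kidney, eye and skin, was at 71.3, 72.3 and 69.1 CPM with NE and 55.6, 60.4 and 62.4 CPM with vehicle. Every NE value was higher (log2 fold change 0.25, SE 0.053, adjusted p = 0.0487). COL4A6, whose printed start window shares bases with that of COL4A5, was at 50.2, 49.7 and 51.5 CPM with NE and 40.5, 43.5 and 44.6 CPM with vehicle. These groups were apart too, and the change lay just outside the threshold (log2 fold change 0.23, SE 0.05, adjusted p = 0.0514). COL4A6 was called higher under 7 of 14 other settings, with adjusted p from 0.000344 to 0.235. The COL4A5 call was lost without each of NE replicates 1, 2 and 3 and vehicle replicates 2 and 3. The other pairs had log2 fold changes of 0.11 and 0.04 for COL4A1 and COL4A2 and of -0.56 and -0.09 for the scarce COL4A3 and COL4A4.

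FN1, COL1A1, COL1A2 and LAMA4 were not called with NE, although the COL1A1 result depended on the setting. FN1 was at 6943, 7374 and 7721 CPM with NE and 6596, 8170.1 and 8437 CPM with vehicle, where the groups overlapped and vehicle replicate 1 was the lowest of all 6 (log2 fold change -0.07, SE 0.096, adjusted p = 0.792). COL1A1 was at 1356, 1393 and 1390.2 CPM with NE and 1486, 1566 and 1604 CPM with vehicle, all NE values being lower (log2 fold change -0.17, SE 0.049, adjusted p = 0.143). COL1A1 was called lower under 6 of 14 other settings (DESeq2, the replicate block, the GC and length correction, both together, 1 fit of all 12 libraries, and without vehicle replicate 1), and its adjusted p ranged from 0.000120 to 0.421 over the 14. COL1A2 was at 719, 736 and 705 CPM with NE and 753, 769 and 796 CPM with vehicle, again with NE below vehicle (log2 fold change -0.10, SE 0.045, adjusted p = 0.372). LAMA4 was at 449, 478 and 490.2 CPM with NE and 408, 467 and 470.5 CPM with vehicle, and its groups overlapped (log2 fold change 0.07, SE 0.066, adjusted p = 0.695). Of the 17 members raised by DEX, FBN1, FBN2, HSPG2, LAMC1 and COL6A3 had log2 fold changes with NE of 0.17, 0.13, 0.05, 0.01 and 0.05, with overlapping groups. FBN1 was called higher with the replicate block, alone and together with the GC and length correction. COL18A1, also raised by DEX, had all NE values above all vehicle values and was not called (log2 fold change 0.09, adjusted p = 0.35).

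LAMA3, NID2 and LAMB1 had NE values apart from the vehicle values and were not called. LAMA3 and NID2 were called higher with the replicate block, with the GC and length correction and with both together, and LAMB1 was called lower with both together. LAMA5 was called lower under those 3 settings and without vehicle replicate 1. Its groups overlapped, at 115, 129 and 126 CPM with NE and 123, 143 and 152 CPM with vehicle. LAMA3 had all NE values above all vehicle values, at 40.2, 44.8 and 46.5 CPM with NE and 30.7, 39.3 and 39.1 CPM with vehicle (log2 fold change 0.27, SE 0.10, adjusted p = 0.276). NID2 had the same order, at 87.4 ± 2.18 CPM with NE and 76.5 ± 5.77 CPM with vehicle (log2 fold change 0.19, SE 0.06, adjusted p = 0.183). LAMB1, the beta chain of the abundant laminins, had the opposite order, at 423 ± 6.77 CPM with NE and 452 ± 16.5 CPM with vehicle (log2 fold change -0.10, SE 0.045, adjusted p = 0.399). COL13A1 and COL17A1, both transmembrane collagens, had log2 fold changes of -0.21 and -0.20, and COL21A1 had 0.53 with an SE of 0.253. All members together took 1.67 ± 0.0740% of the counts with NE and 1.69 ± 0.176% with vehicle.

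**Figure D4:**
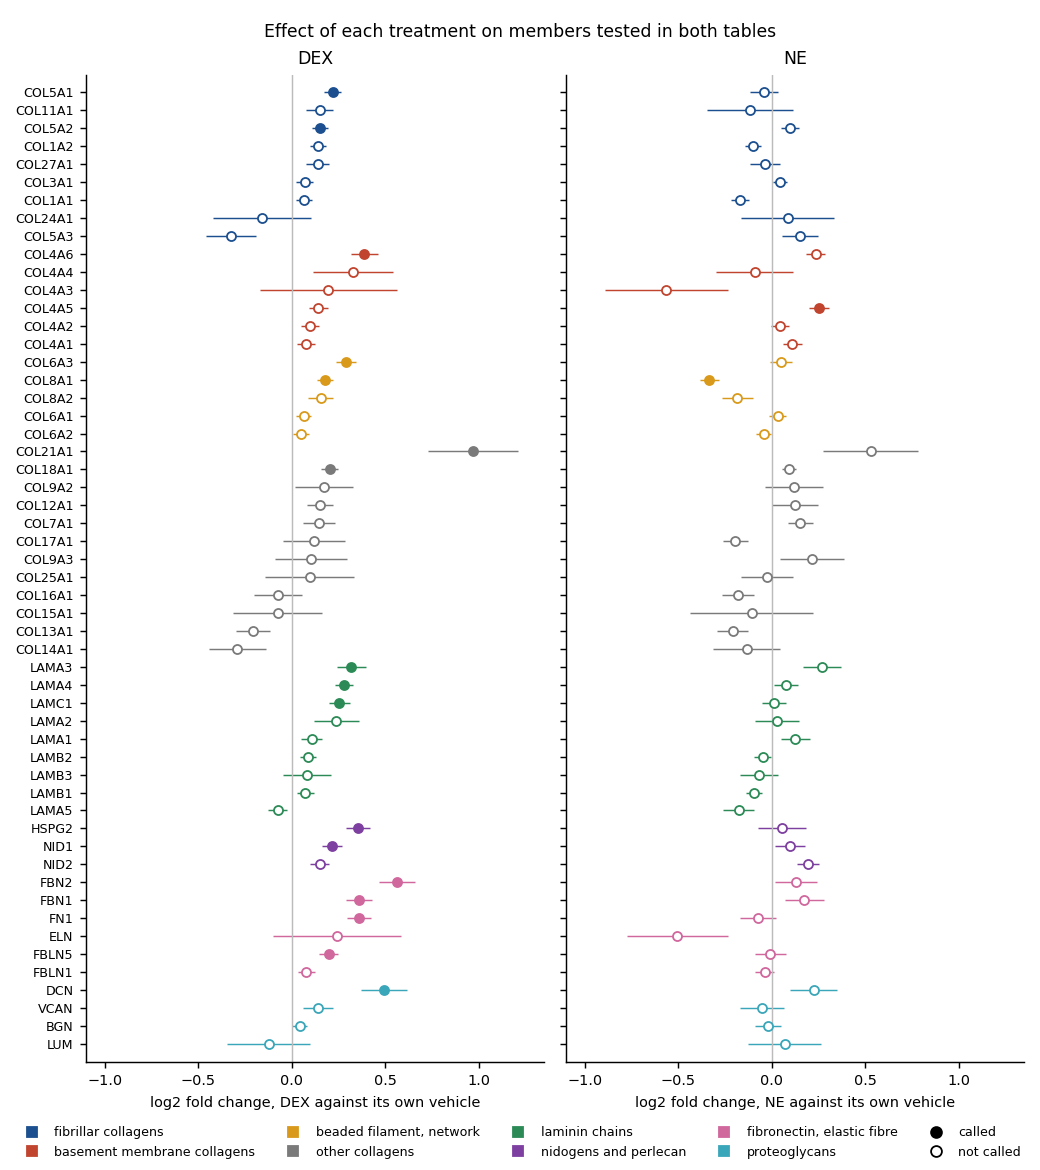
Log2 fold change with its standard error (bars) of members tested in both tables, for DEX on the left and NE on the right, each against the vehicle group of the same table; filled points were called, and colours mark the class. With DEX the points lie mostly right of 0, whereas with NE they scatter around 0, with COL8A1 called on the left.

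The direct test of the DEX effect minus the NE effect, each against its own vehicle, called COL8A1, COL1A2 and COL1A1, all with the higher value for DEX. These were 3 of 58 tested members, against 3.88% of all 15952 genes, and none was lower, against 2.12% of all genes; 1 member was lower at an unadjusted p below 0.05 and DESeq2 called none lower. COL8A1 differed by a log2 value of 0.51 (SE 0.0655, adjusted p = 0.000201), rising with DEX and falling with NE, and it was called under all 17 other settings. COL1A2 differed by 0.24 (SE 0.0568, adjusted p = 0.0207) and COL1A1 by 0.23 (SE 0.0587, adjusted p = 0.0305), with positive values for DEX and negative values for NE that were not called on their own. The difference for FN1 was 0.43 with an adjusted p of 0.0662, and for LAMA4 and COL4A6, both called with DEX and not with NE, it was 0.20 and 0.15 with adjusted p-values of 0.239 and 0.359, so the test did not separate the 2 treatments for them. The count was 10 without vehicle replicate 1 of the NE table, where FN1, LAMA4, LAMB1, LAMC1, COL5A1, COL6A3 and FBN2 were added, and 1 without DEX replicate 2, DEX replicate 3, vehicle replicate 1 or vehicle replicate 2 of the DEX table, or without NE replicate 3 or vehicle replicate 3 of the NE table.

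**Figure D5:**
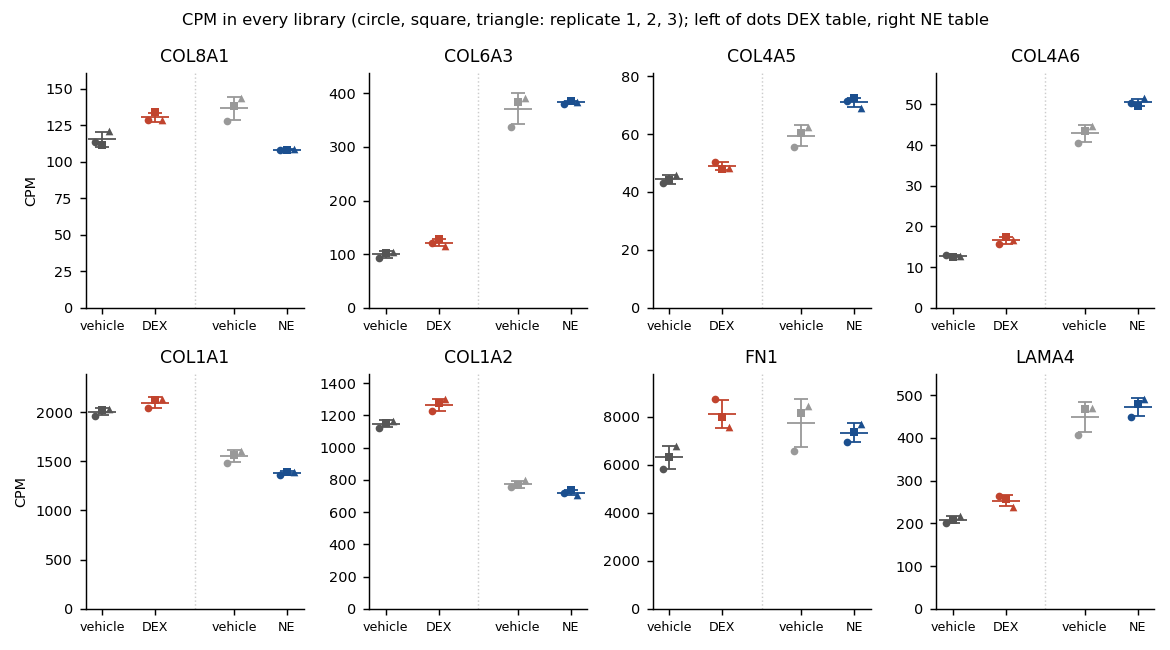
CPM in every library for 8 members, with circle, square and triangle for replicates 1, 2 and 3, horizontal marks for the mean and bars for the SD; the dotted line divides the DEX table from the NE table. COL8A1 is higher with DEX and lower with NE than its own vehicle, and FN1 is higher with DEX and overlaps its vehicle with NE.

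Genes that fold, cut and bind these proteins changed in small numbers, from lists that were described by counts alone. Of all genes, 10.1% were called with DEX and 2.82% with NE, and such small counts are no result about a list. Of 24 enzymes and chaperones for collagen folding and crosslinking, DEX raised P4HA2 and P4HA3, catalytic subunits of prolyl hydroxylase, by 0.23 and 0.51 on the log2 scale, and SERPINH1, the collagen chaperone HSP47, fell by 0.19 (adjusted p 0.00524, 0.00418 and 0.00654). The median of that list was 0.02 against -0.01 for all genes. With NE none of the 24 was called by edgeR, 6 had an unadjusted p below 0.05, and DESeq2 called 2. P4HA2, P4HA3 and SERPINH1 had log2 fold changes with NE of -0.008, 0.39 and -0.19 (adjusted p 0.965, 0.0884 and 0.109). The DEX effect minus the NE effect was 0.23, 0.12 and -0.003 for them (adjusted p 0.0518, 0.774 and 0.991). The direct test thus called none of these genes as different between the treatments. None of the 8 tested procollagen-processing genes was called by edgeR or DESeq2 with either treatment, and 2 with DEX and 0 with NE had an unadjusted p below 0.05.

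Of 9 other basement membrane genes tested with DEX, NPNT, an integrin ligand, rose by 0.46 and PXDN, which crosslinks type IV collagen, rose by 0.21 on the log2 scale, while TINAGL1 fell by 0.26 (adjusted p 0.0436, 0.0175 and 0.0359). With NE none of 10 was called by edgeR or DESeq2, and 1 had an unadjusted p below 0.05. Of 15 further elastic fibre genes, ADAMTSL4, which binds fibrillin microfibrils and is needed for lens suspension, rose by 0.45 with DEX (adjusted p = 0.0296). With NE edgeR called none of the 15, DESeq2 called 1 and 2 had an unadjusted p below 0.05. Of the other proteoglycans, none of 13 was called with DEX by edgeR or DESeq2, where 2 had an unadjusted p below 0.05, and SPOCK2 rose 2.59-fold with NE from 0.603 ± 0.251 to 1.58 ± 0.192 CPM (adjusted p = 0.0438), 1 of 12 tested.

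Among 12 tested collagen and laminin receptors other than integrins, both treatments raised ANTXR1 and lowered ANTXR2, related receptors that bind matrix proteins. ANTXR1 rose by 0.30 with DEX and by 0.40 with NE on the log2 scale (adjusted p 0.000728 and 0.0159), and ANTXR2 fell by 0.41 and by 0.49 (adjusted p 6.20e-05 and 0.00189). SDC4, a heparan sulfate co-receptor for fibronectin, fell by 0.24 with DEX and by 0.25 with NE (adjusted p 0.00284 and 0.0148). SDC1, the related syndecan of epithelia, fell by 0.32 with NE (adjusted p = 0.0246) and was not called with DEX, and the difference between its 2 effects was 0.42 (adjusted p = 0.00140).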

How the data were processed

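RNA sequencing of 9 labelled samples in 3 groups was deposited as 2 tables with 12 library columns. The tables were deposited by the authors in expected counts (estimated counts that need not be whole), a unit read from the values, of which 49.3% to 55.6% above 0 in a library were not whole. The sources used here do not name the aligner, counter, genome build, strand setting or library kit. DMSO columns of the NE table belong to the vehicle group but were not matched to labelled samples. They may or may not be the same cultures as those of the DEX table.

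Counts were rounded and filtered with filterByExpr, scaled by TMM and tested with edgeR 4.0.16 (quasi-likelihood, robust, R 4.3.3) on whole tables, with Benjamini-Hochberg adjustment over all genes and a threshold of 0.05. The difference between effects was fitted over all 12 libraries. CPM used TMM sizes within each table. Symbols matched 34436 of 37247 identifiers. Transcript length and GC content are those of the principal protein-coding transcript in GENCODE 29 (GRCh38). TPM divides rounded counts by that length. Promoter windows came from a RefSeq table and matched 50 of 68 members. The scripts were tested on simulated counts.

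Members and lists were chosen with earlier results of these data known. Every member called in a comparison, FN1, LAMA4, COL1A1 and the 5 members with the highest vehicle level per length are given with the value in every library, and the others by range, count or fitted value. Other members named with values, such as those near a threshold, were chosen after their values were seen. As an exception, some members and markers are not reported here.

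Alternatives were DESeq2 1.42.0, RLE factors, no filter, a filter of 1 CPM in 3 libraries, the replicate number as a block, a correction for GC content and length (mgcv 1.9.3), 1 fit of all 12 libraries, and each library left out in turn. A chi-square comparison of replicate counts found no pair of libraries within sampling noise. Counting error at these depths is small for abundant members and large for those at a few counts.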

Additional observations from a re-analysis of the deposited data

How the results depend on the processing

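No member that was called changed direction, but the median of all members with NE, 0.02, was -0.04 without vehicle replicate 1 and -0.01 without NE replicate 3, and small uncalled fold changes such as those of HSPG2, LAMC1 and COL6A3 with NE and COL1A1 with DEX took both signs over the settings. The DEX count of 17 members was 15 with DESeq2, 18 with RLE factors, 20 without a filter, 17 with the stricter filter, 16 with the GC and length correction, 11 in 1 fit of all 12 libraries, and 6 to 19 with a library left out. The NE count of 3 was 5 in 1 fit of all 12 libraries, 8 with the GC and length correction (4 higher, 4 lower) and 0 to 5 with a library left out, while the share of all genes called with NE, 2.82%, was 4.40% and 5.29% in the first pair of settings. The difference count of 3 was 7 with the GC and length correction and 1 to 10 with a library left out. The cause of these changes in count was not tested. Fits with a library left out also hold fewer libraries. Same-numbered libraries correlated at -0.02, 0.04 and -0.11 in the DEX table and at 0.18, 0.04 and 0.10 in the NE table. Treated and vehicle libraries of different number correlated at -0.08 to 0.11 in the DEX table and at -0.13 to 0.04 in the NE table. Pairing by number was not assumed, as 1 of 3 NE pairs was below 0.1, although all 3 were above 0. A pairing in the NE table therefore remains possible, and the NE counts depend on it. With the replicate block the DEX count was 11, the NE count 10 (6 higher, 4 lower) and the difference count 4. With the replicate block and the GC and length correction together, the DEX count was 15 and the NE count 15 (9 higher, 6 lower). The calls over all genes rose too: 10.8% of all genes were called with NE under the block and 13.5% with both, against 17.2% and 25.9% of tested members. COL4A5 lost its NE call with RLE factors. COL1A1 was called lower with NE under 6 of 14 other settings and COL4A6 higher under 7. Members with few counts, such as ELN, have wide standard errors, and changes of the size seen in abundant members may not have been detectable in them.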
